A study of Mus musculus with 24 samples.

Results

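The genes described here are the activity-regulated early response genes of the thalamus, a module of 38 genes taken by annotated gene symbol. The list was drawn up with earlier results of these data known. Of these, 37 were measured among 18194 genes on the arrays, and Arl4d had no expression values here and entered only the promoter search. Where a gene had several probe sets, the groups of short oligonucleotides that read its transcripts, the brightest by mean over the 24 arrays was used, and 21 of the 37 genes had more than 1. The study asked how loss of the eyes before birth alters gene expression in thalamic nuclei that relay touch and vision. Wild-type mice on a C57BL/6 background were compared at postnatal day 4 (P4) and day 0 (P0). In embBE pups both eyes had been cauterized in utero, and control pups had not been enucleated. Tissue came from VB, the ventrobasal complex whose medial part (VPM) relays whisker touch, and from dLGN, the dorsal lateral geniculate nucleus that relays vision. Each of the 24 arrays read 1 pool of nuclei from littermate pups of 1 condition. The number of pups in a pool is not given in the sources used here. Each combination of nucleus, age and treatment had 3 arrays, except that dLGN of P0 pups had 4 for embBE and 2 for controls. Arrays are named below by the pair of numbers in their labels, whose meaning is not stated, and p-values therefore measure only how far the arrays of a group differ, which may be technical in part.

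Early response genes are transcribed within minutes of a rise in intracellular calcium, without new protein synthesis, and their transcripts are short-lived. In neurons, calcium that enters through synaptic receptors and voltage-gated channels activates kinases that phosphorylate CREB, a factor bound at cAMP response elements (CRE), and the partners of serum response factor, bound at CArG boxes. The first products are transcription factors of the AP-1, EGR and NR4A families, with phosphatases and other regulators that end the signal. They are followed by effectors that act at synapses or are secreted. The immature thalamus is spontaneously active before sensory experience, which makes these transcripts the usual record of recent activity. The tissue here was cut on a vibratome and microdissected before it entered a stabilizing solution, and handling of that kind can itself induce these genes. Levels of 10 heat shock genes, which respond to handling stress, stand beside the results.

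Values are the log2 signals that the authors deposited, so a difference of 1 is a doubling, and the level of a gene cannot be set against that of another gene because their probes differ. The spread of signals over all probe sets had an SD of 2.33 to 2.42 on 10 of the 12 VB arrays and of 2.22 and 2.26 on VB control arrays 35_1 (P0) and 36_3 (P4). It was 2.16 to 2.41 in dLGN. The gap between the 3' and 5' actin probe sets, which widens with degraded or shortened RNA, was 1.95 to 2.98 log2 units on those 10 VB arrays and 4.29 and 3.14 on the other VB arrays. In dLGN it was 2.21 on control array 24_2 (P4) and 3.06 to 4.27 on the others, so this measure differed between the nuclei. Of 8 relay neuron markers, 6 (Tcf7l2, Lef1, Slc17a6, Rora, Foxp2 and Lhx9) were at 9.35 or above on every array, whereas Gbx2 was at 4.57 to 9.05 and Lhx2 at 3.26 to 6.99. The 7 measured markers of cortical and hippocampal neurons lay between 2.46 (Neurod6) and 8.64 (Bcl11b), and since probes differ these ranges do not rank the cell types. The summed signal of the relay neuron markers was 14.20 to 14.97 on the log2 scale over all arrays. That of the heat shock genes was 15.10 to 15.51. The median within-group SD was 0.20 for the members and 0.17 for all genes in VB, and 0.21 for both in dLGN.

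Promoter sequence is shown for Fosl2, the member with the widest difference between the nuclei among those that passed in both treatments at P4, and for Fos, Nr4a1 and Npas4 as established readouts of neuronal activity. The 250 bases before the RefSeq transcription start are given 5' to 3' on the gene's own strand (build GRCm38.p6). Capitals mark the CRE core TGACG, on either strand, and TATAAA. The windows are chr5:32136222-32136471 (+) for Fosl2, chr12:85473640-85473889 (+) for Fos, chr15:101266596-101266845 (+) for Nr4a1 and chr19:4989972-4990221 (-) for Npas4.
Fosl2: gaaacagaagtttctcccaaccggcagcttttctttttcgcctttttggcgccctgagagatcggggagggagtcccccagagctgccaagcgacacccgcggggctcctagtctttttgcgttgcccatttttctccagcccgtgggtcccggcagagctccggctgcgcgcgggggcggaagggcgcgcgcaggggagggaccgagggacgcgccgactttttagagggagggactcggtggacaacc
Fos: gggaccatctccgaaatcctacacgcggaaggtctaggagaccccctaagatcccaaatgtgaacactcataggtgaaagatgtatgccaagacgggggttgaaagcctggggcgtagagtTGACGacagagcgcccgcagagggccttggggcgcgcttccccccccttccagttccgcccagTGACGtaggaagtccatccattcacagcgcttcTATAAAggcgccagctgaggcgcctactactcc
Nr4a1: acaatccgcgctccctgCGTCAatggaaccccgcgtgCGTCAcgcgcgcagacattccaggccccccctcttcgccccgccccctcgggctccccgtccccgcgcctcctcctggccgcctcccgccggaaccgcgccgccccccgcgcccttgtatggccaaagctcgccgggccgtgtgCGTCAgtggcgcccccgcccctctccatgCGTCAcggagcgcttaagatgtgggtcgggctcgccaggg
Npas4: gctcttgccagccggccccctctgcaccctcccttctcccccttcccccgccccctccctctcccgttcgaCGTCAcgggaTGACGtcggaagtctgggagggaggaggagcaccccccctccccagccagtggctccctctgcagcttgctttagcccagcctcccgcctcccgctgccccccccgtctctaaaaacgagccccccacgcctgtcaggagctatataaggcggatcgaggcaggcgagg

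The CRE core stood 129 and 66 bases before the start of Fos, which also had TATAAA at 33 bases. It stood 233, 213, 69 and 40 bases before the start of Nr4a1, and 179 and 169 bases before that of Npas4. The Fosl2 window held none of the motifs searched. The RefSeq table listed promoters for 28 members, 33 windows in all, counting alternative starts that can overlap. The core TGACG was present for 18 members, in 60.6% of the member windows and in 17.8% of all 32851 windows of the same length. The whole CRE TGACGTCA, which contains the core on both strands, was present for Btg2, Dusp1, Plk2 and Arl4d, in 12.1% of member windows and 1.55% of all. The CArG box was found for Dusp5 and Egr2, in 15.2% of member windows and 1.47% of all. These were 5 windows of 2 members, most of them alternative starts of Egr2, so the share counts some starts of the same gene repeatedly. TATAAA occurred for Fos, Gadd45b, Gadd45g, Inhba and Nr4a2, in 15.2% of member windows and 12.4% of all. A match describes these letters only and is not evidence of a bound factor.

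The first question was whether the early response genes differed between embBE and control mice. Few did, and none passed an adjustment for all genes. A gene was called when it differed at least 1.5-fold with an unadjusted p under 0.05. This threshold was chosen to match the methods, which state no adjustment. By that measure 1 of 37 members was called in VB at P4 (Egr1, higher in embBE), 0 in VB at P0, 1 in dLGN at P4 (Fos, lower in embBE) and 0 in dLGN at P0. Over all genes that threshold called 0.159% in VB at P4, 0.726% in VB at P0, 0.198% in dLGN at P4 and 0.445% in dLGN at P0. The median log2 difference of the members was 0.07 in VB at P4, 0.02 in VB at P0, -0.03 in dLGN at P4 and -0.07 in dLGN at P0, against -0.02, -0.03, 0.01 and 0.03 over all genes in the same order. With a Benjamini-Hochberg adjustment over all genes limma called 0 members in each of these comparisons, and so did the methods' t-test. At an unadjusted p under 0.05 limma had 3, 5, 3 and 4 members in that order, against 724, 1219, 236 and 433 of all 18194 genes. The t-test had 3, 2, 4 and 0 members, against 827, 805, 377 and 436 of all genes. In bulk tissue, fewer cells of a type and less RNA per cell cannot be told apart. Of the heat shock genes, 0 of 10 were called in any of the comparisons of embBE with control.

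Egr1, a zinc finger factor induced by synaptic activity, was 8.84, 8.46 and 8.97 in VB of P4 embBE mice and 8.22, 7.96 and 8.07 in VB of P4 controls. The embBE arrays all lay above the controls. The difference was 0.68 ± 0.29 (log2, SE), a 1.60-fold increase (unadjusted p of 0.0371, adjusted p of 0.751 in limma). At P0 the same nucleus gave 8.34, 8.59 and 8.05 in embBE and 7.53, 8.92 and 7.73 in controls, with the highest array a control. In dLGN Egr1 was 8.52, 7.65 and 8.72 in P4 embBE mice and 8.12, 7.66 and 8.03 in P4 controls, and the groups overlapped. At P0 it was 8.31, 8.43, 8.05 and 8.41 in dLGN of embBE mice and 8.23 and 8.29 in dLGN of controls, again with overlap. The VB call at P4 was lost without control array 36_3 (0.62), control 40_1 (0.67), embBE 24_4 (0.64) or embBE 40_3 (0.57), and with the actin gap as a covariate (0.43). Leaving out embBE array 36_2 gave 2 called members, Egr1 and Egr2.

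Fos, the AP-1 subunit most used as a marker of activated neurons, lay below the controls on every embBE dLGN array at both ages. At P4 it was 7.75, 7.55 and 7.70 in dLGN of embBE mice and 8.67, 8.16 and 8.21 in dLGN of controls, with no overlap. The difference was -0.68 ± 0.22, 1.60-fold lower (unadjusted p of 0.00915, adjusted p of 1 in limma). At P0 the levels were 7.28, 7.72, 7.81 and 6.92 in embBE and 7.99 and 8.04 in controls, again with no overlap. That difference was -0.58 (unadjusted p of 0.0274, adjusted p of 0.851), under the 1.5-fold threshold, which is 0.58 when rounded. In VB Fos was 8.83, 8.87 and 8.72 in P4 embBE mice and 8.62, 8.12 and 8.76 in P4 controls, and it was 8.41, 8.10 and 7.78 in P0 embBE mice and 8.02, 8.67 and 8.06 in P0 controls. Both VB pairs of groups overlapped. The dLGN call at P4 was lost without control array 24_2 (-0.52), the array with the smallest actin gap in dLGN, and with the actin gap as a covariate (-0.56). Without embBE array 36_2 or 24_4 there were 3 (Dusp5, Egr1 and Fos) and 2 (Egr2 and Fos) called members. At P0, Fos was called without embBE array 39_3 or 39_4, Klf6 without control 35_1 and Egr2 without control 39_5, each as the 1 called member.

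**Figure D1:**
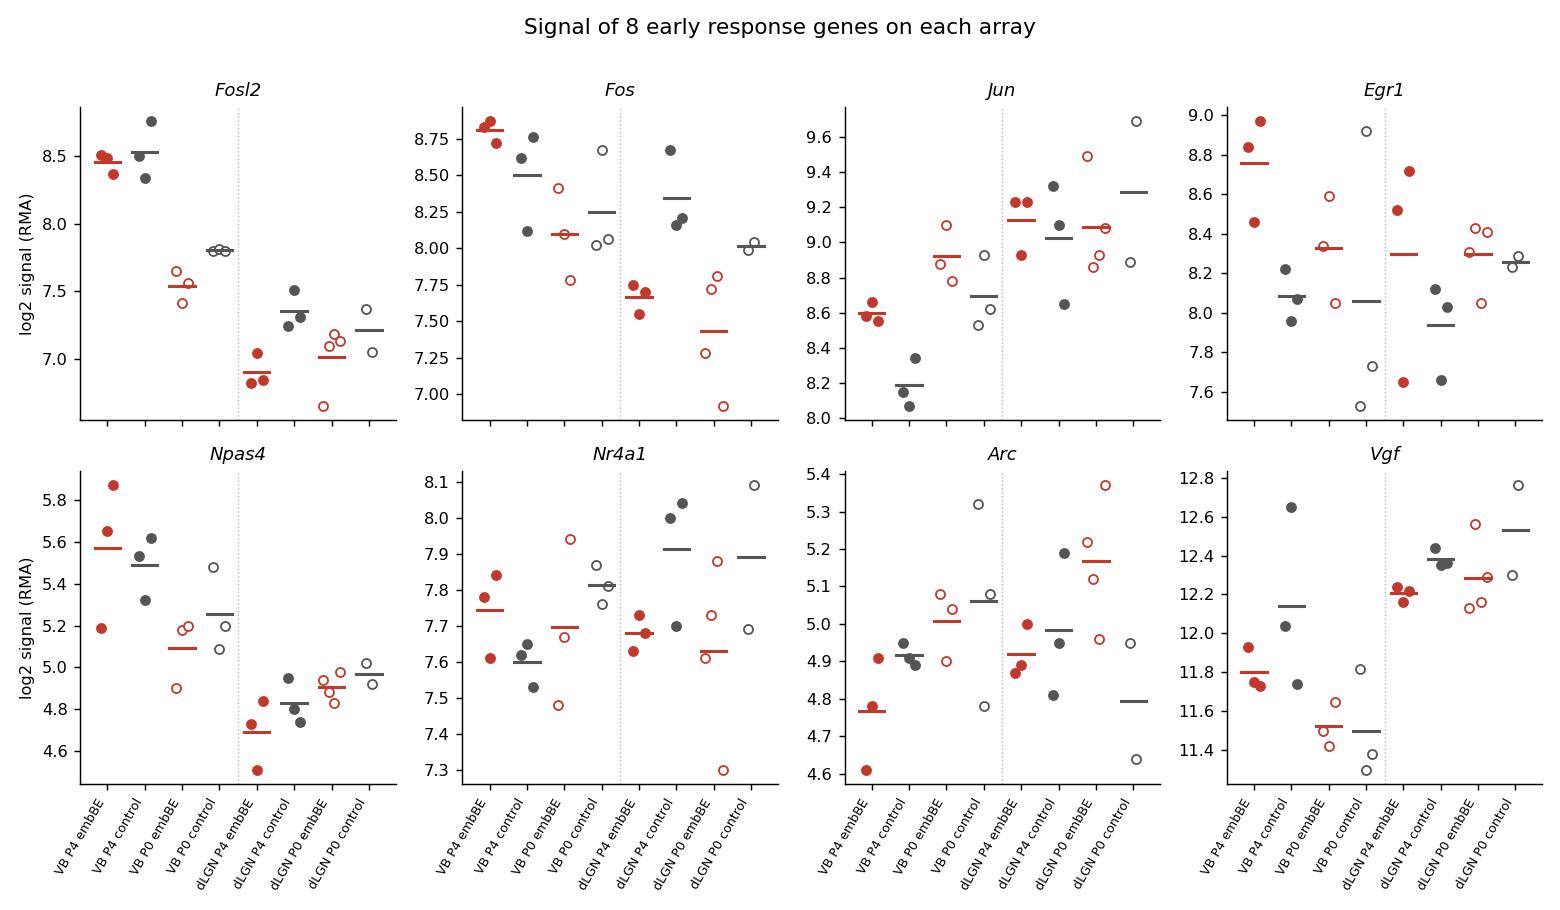
Log2 signal (vertical axis) of 8 members on each array of each nucleus, with embBE in red left of control in grey; filled points are P4, open points are P0 and bars are group means. Fos in dLGN lies at 6.92 to 7.81 in embBE and at 7.99 to 8.67 in controls, and Fosl2 lies higher in VB than in dLGN in every group.

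Markers of other cells moved with the treatment in some of the same comparisons. In dLGN at P4 the summed signal of 8 meningeal fibroblast markers was 9.40 to 10.74 in embBE and 9.06 to 9.33 in controls, with Col3a1 called at 1.56 and Dcn at 1.07. In dLGN at P0 the sum of 8 astrocyte and radial glia markers was 13.38 to 14.01 in embBE and 14.21 to 14.36 in controls. There the sum of 10 microglia and macrophage markers was 10.99 to 11.94 in embBE and 10.74 to 10.88 in controls, with 10 of 10 above 0 (median 0.27, against 0.03 over all genes) and 0 called. In VB at P0 the sum of 12 markers of neighbouring GABAergic neurons was 9.02 to 9.16 in embBE and 9.05 to 11.10 in controls. Their part in the results for Fos and the other members was not tested.

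The other members were summarised by role. Of the AP-1 family, Jun was 8.58, 8.66 and 8.55 in VB of P4 embBE mice and 8.15, 8.07 and 8.34 in VB of P4 controls, without overlap (0.42, unadjusted p of 0.00678), which is less than 1.5-fold. The second probe set of Jun read 6.99, 7.26 and 7.04 in these embBE mice and 6.20, 6.30 and 6.48 in these controls, which is more than 1.5-fold. Fosb and Junb moved by at most 0.28 in either direction in any comparison of embBE with control, and Jund by at most 0.21. Fosl2, which encodes the Fos relative Fra-2, was 6.82, 7.04 and 6.84 in dLGN of P4 embBE mice and 7.24, 7.51 and 7.31 in dLGN of P4 controls. These groups did not overlap, and the difference of -0.45 was under 1.5-fold (unadjusted p of 0.0149). Atf3, a stress-induced factor of the same superfamily, differed by 0.21 or less.

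Npas4, a neuronal factor that responds to calcium entry more selectively than Fos, was not called. It was 5.19, 5.65 and 5.87 in VB of P4 embBE mice and 5.53, 5.32 and 5.62 in VB of P4 controls, and it was 4.90, 5.18 and 5.20 in VB of P0 embBE mice and 5.48, 5.09 and 5.20 in VB of P0 controls. In dLGN Npas4 was 4.73, 4.51 and 4.84 in P4 embBE mice and 4.95, 4.80 and 4.74 in P4 controls, and it was 4.94, 4.88, 4.83 and 4.98 in P0 embBE mice and 5.02 and 4.92 in P0 controls. All of these pairs of groups overlapped, with differences from -0.16 to 0.08.

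Nr4a1, an orphan nuclear receptor also known as Nur77, differed by 0.27 or less. It was 7.78, 7.61 and 7.84 in VB of P4 embBE mice and 7.62, 7.65 and 7.53 in VB of P4 controls, and it was 7.48, 7.67 and 7.94 in VB of P0 embBE mice and 7.87, 7.76 and 7.81 in VB of P0 controls. In dLGN Nr4a1 was 7.63, 7.73 and 7.68 in P4 embBE mice and 8.0, 7.70 and 8.04 in P4 controls, and it was 7.61, 7.73, 7.88 and 7.30 in P0 embBE mice and 7.69 and 8.09 in P0 controls. Every pair of groups overlapped. Its relatives Nr4a2 and Nr4a3 differed by 0.17 or less, and Nr4a2 is also a marker of the neighbouring habenula. Of the other factors, Egr3 and Egr4 differed by 0.27 or less and Egr2 by 0.44 or less, Klf4, a Krüppel-like factor, by 0.19 or less, and Crem, which encodes repressors of CREB targets, by 0.19 or less. Klf6 was 0.45 higher in dLGN of P0 embBE mice (unadjusted p of 0.0286).

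Among the regulators that end or shape the response, Dusp5, a phosphatase of ERK, was not called. Its difference was -0.53 in dLGN at P4 (unadjusted p of 0.0236), with 8.12, 8.24 and 7.99 in embBE and 8.53, 8.61 and 8.81 in controls. It was -0.43 in VB at P0 (unadjusted p of 0.00372), with 8.22, 8.16 and 8.21 in embBE and 8.75, 8.49 and 8.63 in controls. Neither pair of groups overlapped. Rgs2, which quenches signals through Gq, was -0.58 in VB at P0, just under 1.5-fold (unadjusted p of 0.0105), with 10.83, 10.56 and 10.53 in embBE and 11.48, 10.83 and 11.35 in controls. That value rested on the brightest of its probe sets. In VB at P0 the groups overlapped on each of the others, the second of which read 10.43, 10.27 and 10.20 in embBE and 10.17, 10.34 and 10.51 in controls. Gadd45b, a factor of DNA demethylation and growth arrest, was -0.38 there (unadjusted p of 0.019), and Btg2, an anti-proliferative gene, was -0.43 in dLGN at P0 (unadjusted p of 0.0313). Rgs2 was called in VB at P0 without embBE array 35_3, and Rgs2, Egr1 and Plk2 were called without control array 35_2. The phosphatase Dusp1, the kinases Sik1 and Plk2, the pseudokinase Trib1, and Ier2, Ier3, Ier5 and Gadd45g had differences between -0.27 and 0.48.

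Of the effectors, Arc, which removes AMPA receptors from synapses, was 4.61, 4.78 and 4.91 in VB of P4 embBE mice and 4.95, 4.91 and 4.89 in VB of P4 controls, and it was 5.08, 4.90 and 5.04 in VB of P0 embBE mice and 5.32, 4.78 and 5.08 in VB of P0 controls. In dLGN Arc was 4.87, 4.89 and 5.0 in P4 embBE mice and 4.81, 4.95 and 5.19 in P4 controls, and it was 5.22, 5.12, 4.96 and 5.37 in P0 embBE mice and 4.95 and 4.64 in P0 controls. The groups overlapped except in dLGN at P0, where every embBE array was higher (0.38, unadjusted p of 0.0314). All Arc values lay below 6, the level under which probe sets were left out in 1 alternative, as did those of Fosb, Junb and Ptgs2. Homer1 encodes synaptic scaffolds of which a short form is induced by activity, and which form its probe set reads is not given in the sources used here; it differed by 0.18 or less. Nptx2, which clusters AMPA receptors, Nrn1 (neuritin), Ptgs2 (cyclooxygenase-2) and Vgf, a secreted neuropeptide precursor, had differences between -0.43 and 0.19. Inhba, a subunit of activin, was 6.85, 10.10 and 7.09 in VB of P4 embBE mice and 7.20, 6.56 and 6.88 in VB of P4 controls. The mean difference of 1.13 rested on embBE array 36_2 and had an unadjusted p of 0.104.

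The embBE effect itself was compared between ages and between nuclei. No member passed in any of these contrasts, and over all genes 0% passed in each. The lowest unadjusted p of a member was that of Fos at P4, whose embBE effect was 0.98 ± 0.32 higher in VB than in dLGN (unadjusted p of 0.00608, adjusted p of 0.977 in limma). At P0 that of Rgs2, read by the brightest of its probe sets alone, was -0.95 ± 0.33 (unadjusted p of 0.00944, adjusted p of 0.551). Between P4 and P0, 0 members reached an unadjusted p under 0.05 in either nucleus, where 294 of all 18194 genes did in VB and 143 in dLGN.

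The second question was how the module changed over the first postnatal days. In VB 1 member passed an adjusted p of 0.05 in embBE mice and 2 in controls, and in dLGN 0 passed in either treatment. Over all genes 3.42% passed in VB of embBE mice, 3.78% in VB of controls, 1.02% in dLGN of embBE mice and 0.561% in dLGN of controls. The median change of the members was -0.04 and -0.02 in VB of embBE and control mice, against -0.04 and -0.03 over all genes, and -0.01 and 0.08 in dLGN of embBE and control mice, against 0.01 and 0.04 over all genes. Unadjusted p values under 0.05 were reached by 9, 10, 4 and 0 of 37 members in that order of groups. Over all 18194 genes 3083, 3481, 2128 and 1752 reached this level. With the actin gap of each array as a covariate, 6 and 6 members passed in VB of embBE and control mice and 2 in dLGN of embBE mice (Klf6 and Nrn1). The share of all genes that passed in that fit was not counted, so these numbers cannot be set against it.

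Fosl2 was the member that rose in VB in both treatments. In embBE mice it was 8.51, 8.49 and 8.37 at P4 and 7.65, 7.41 and 7.56 at P0. In controls it was 8.50, 8.34 and 8.76 at P4 and 7.80, 7.81 and 7.80 at P0. All 6 P4 arrays lay above all 6 P0 arrays. The change was 0.92 ± 0.12 in embBE mice, or 1.89-fold (adjusted p of 0.00154), and 0.73 ± 0.12 in controls, or 1.66-fold (adjusted p of 0.00569). In dLGN of embBE mice Fosl2 was 6.82, 7.04 and 6.84 at P4 and 6.65, 7.09, 7.18 and 7.13 at P0, and in dLGN of controls it was 7.24, 7.51 and 7.31 at P4 and 7.37 and 7.05 at P0. These groups overlapped, with changes of -0.12 and 0.15.

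Jun, whose protein pairs with the Fos family, fell in VB of controls. It was 8.15, 8.07 and 8.34 at P4 and 8.53, 8.93 and 8.62 at P0, without overlap, a change of -0.51 ± 0.13 or 1.42-fold lower (adjusted p of 0.0476). In VB of embBE mice Jun was 8.58, 8.66 and 8.55 at P4 and 8.88, 9.10 and 8.78 at P0, also without overlap, but the change of -0.32 did not pass (adjusted p of 0.223). The Jun call was lost under 11 of 16 alternatives, among them the fits without control arrays 39_5 (P0), 24_2 (P4) or 40_1 (P4), each of which left Fosl2 as the 1 member that passed. Without control array 36_3 (P4) 4 members passed (Fosl2, Ier3, Jund and Nrn1), and without both VB control arrays of narrow spread 6 did. In dLGN of embBE mice Jun was 9.23, 8.93 and 9.23 at P4 and 9.49, 8.86, 8.93 and 9.08 at P0, and in dLGN of controls it was 9.32, 9.10 and 8.65 at P4 and 8.89 and 9.69 at P0, with overlap in both.

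Nrn1, which promotes growth of neurites and synapses, had changes of 0.78 and 0.78 in VB of embBE and control mice and 1.0 and 0.86 in dLGN of embBE and control mice, with adjusted p values of 0.0742, 0.0667, 0.209 and 0.525. In dLGN of embBE mice Klf6 had the lowest adjusted p of the members, 0.0991, with a change of -0.61. Among the heat shock genes Hspb1 rose in each of these comparisons, by 1.72 and 1.49 in VB of embBE and control mice and by 1.35 and 1.29 in dLGN of embBE and control mice, and the other 9 did not pass. Markers of glia also moved with age in VB. The summed signal of 8 astrocyte and radial glia markers was 14.80 to 14.86 at P4 and 14.25 to 14.37 at P0 in embBE mice, and 14.53 to 14.90 at P4 and 13.94 to 14.54 at P0 in controls. Aqp4 (3.91 in embBE and 3.72 in controls) and Slc1a2 (0.78 and 0.79) passed in both treatments, as did Olig2 (0.46 and 0.68) of the oligodendrocyte lineage and P2ry12 (1.36 and 0.65) of microglia. The relay neuron marker Gbx2 fell in VB of embBE mice (-1.44). In dLGN the astrocyte markers had medians of 0.70 and 0.27 in embBE and control mice, with 8 of 8 above 0 in each and 0 that passed. The relation of Hspb1 and these markers to the changes of Fosl2 and Jun was not tested.

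**Figure D2:**
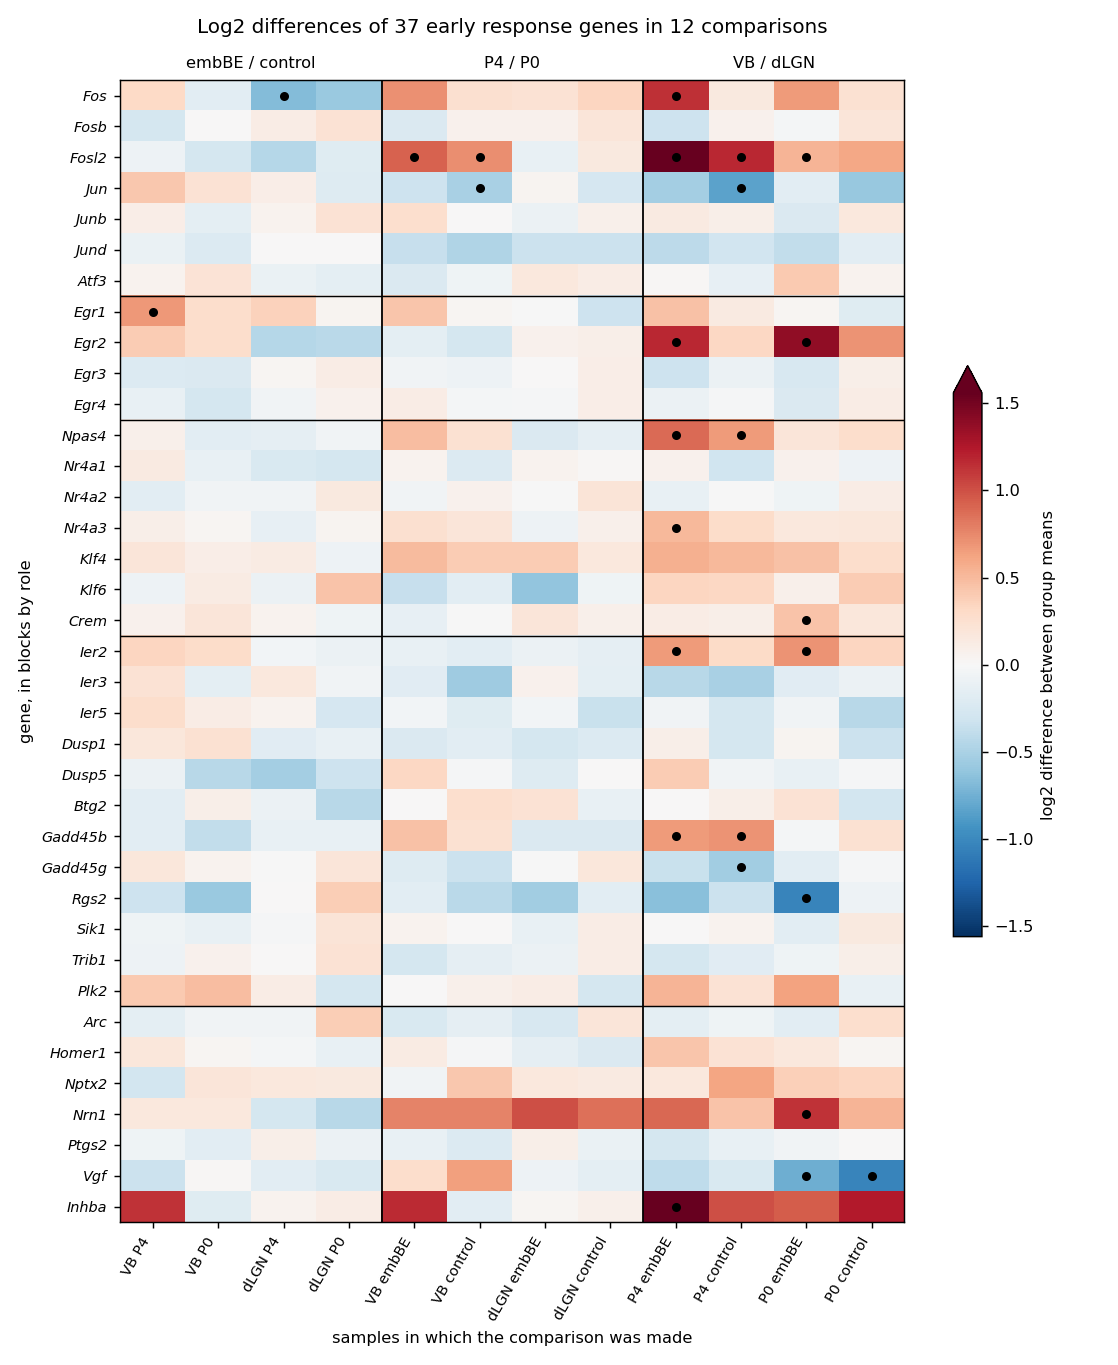
Log2 differences of the 37 members (rows, ordered by role) in 12 comparisons (columns), embBE over control, P4 over P0 and VB over dLGN; red is higher and blue lower in the first-named group, dots mark members that were called (embBE over control) or passed (the other comparisons), and the colour scale ends at 1.56, which Inhba exceeds. The dots lie mostly in the columns of VB over dLGN, where 8, 5, 7 and 1 members passed at P4 in embBE, P4 in controls, P0 in embBE and P0 in controls.

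The third question was whether the nuclei differed. Several early response transcription factors were higher in VB than in dLGN of embBE mice, and fewer were in controls. At P4 Fosl2, Npas4 and the regulator Gadd45b were so in both treatments, although some further probe sets of Fosl2 and Gadd45b did not follow. In a fit over all 24 arrays, in which VB and dLGN arrays that share label numbers formed random blocks, 8 members passed at P4 in embBE mice (8 higher in VB), 5 at P4 in controls (3 higher, 2 lower), 7 at P0 in embBE mice (5 higher, 2 lower) and 1 at P0 in controls (lower). Over all genes 8.44%, 3.21%, 7.46% and 1.56% passed in these comparisons in that order. The split of higher and lower moved with the scaling at P4, to 10 and 0 with centred arrays and 8 and 2 with cyclic loess in embBE mice, and to 4 and 0 and 4 and 2 in controls. The median difference of the members was 0.09, 0.07, 0.03 and 0.11 in that order, against -0.09, -0.03, -0.06 and 0.03 over all genes. In embBE mice the actin gap was wider in dLGN than in VB without overlap, with 3.33 to 3.94 against 1.98 to 2.05 at P4. In controls the nuclei overlapped. Its part in these differences was tested only as a covariate. With it 4 members passed at P4 in embBE mice (Fosl2, Npas4 and Gadd45b higher and Gadd45g lower), 6 at P4 in controls, 0 at P0 in embBE mice and 2 at P0 in controls. The share of all genes in that fit was not counted.

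Fosl2 was higher in VB than in dLGN in all 11 pairs of VB and dLGN arrays with the same label numbers, by 0.31 to 1.69 with a median of 0.84. For Fosl2 and the members below, the share of all genes with 1 direction in all 11 pairs was not counted. From the levels given above, every VB array lay above every dLGN array of its age and treatment. At P4 the difference was 1.56 ± 0.14 in embBE mice, or 2.94-fold (adjusted p of 8.65e-07), and 1.18 ± 0.14 in controls, or 2.27-fold (adjusted p of 2.55e-05). At P0 it was 0.53 in embBE mice, or 1.44-fold (adjusted p of 0.0179), and 0.60 in controls (adjusted p of 0.0588). Both P4 results passed under every alternative tried, with values of 0.54 to 1.68 in embBE mice and 0.53 to 1.28 in controls.

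Npas4 was 5.19, 5.65 and 5.87 in VB and 4.73, 4.51 and 4.84 in dLGN of P4 embBE mice, a difference of 0.88 ± 0.15 or 1.84-fold (adjusted p of 0.00108). In P4 controls it was 5.53, 5.32 and 5.62 in VB and 4.95, 4.80 and 4.74 in dLGN, a difference of 0.66 ± 0.15 or 1.58-fold (adjusted p of 0.0145). Neither pair of groups overlapped. At P0 the differences were 0.19 in embBE mice and 0.28 in controls and did not pass. All Npas4 values lay below 6, the level under which probe sets were left out in 1 alternative.

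Fos was 1.14 ± 0.23 higher in VB than in dLGN in P4 embBE mice, or 2.20-fold (adjusted p of 0.00412), with every VB array above every dLGN array. In P4 controls the difference was 0.15 and the groups overlapped. With the actin gap as a covariate the difference in embBE mice was 0.59 (adjusted p of 0.235). Gadd45b was 7.70, 7.81 and 7.57 in VB and 7.19, 7.17 and 6.74 in dLGN of P4 embBE mice, a difference of 0.66 (adjusted p of 0.0149). In P4 controls it was 7.62, 8.06 and 7.88 in VB and 6.99, 7.03 and 7.44 in dLGN, a difference of 0.70 (adjusted p of 0.0134). Neither pair of groups overlapped.

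Egr2, a relative of Egr1 also known for its role in hindbrain patterning and myelination, was 6.68, 6.98 and 6.32 in VB and 5.12, 5.09, 5.52 and 5.40 in dLGN of P0 embBE mice. Every VB array was higher, by 1.38 ± 0.33 or 2.60-fold (adjusted p of 0.0143). At P4 the difference in embBE mice was 1.17 (adjusted p of 0.0444), with overlapping groups of 7.19, 5.45 and 6.90 in VB and 5.67, 5.07 and 5.31 in dLGN. In controls Egr2 differed by 0.32 at P4 and 0.70 at P0 and did not pass. Ier2 passed in embBE mice at both ages, with 0.67 at P4 (adjusted p of 0.047) and 0.70 at P0 (adjusted p of 0.0305). Nr4a3 passed at P4 in embBE mice (0.51, adjusted p of 0.0347), and Crem (0.44, adjusted p of 0.0305) and Nrn1 (1.13, adjusted p of 0.0256) passed at P0 in embBE mice. Crem has 4 probe sets, and some of the others opposed the direction of the brightest in that comparison.

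Inhba was higher in VB in all 11 pairs of arrays, by 0.40 to 4.10. In P4 embBE mice it was 6.85, 10.10 and 7.09 in VB and 5.84, 6.00 and 5.98 in dLGN, a difference of 2.07 or 4.20-fold (adjusted p of 0.0206). Without VB array 36_2, which held the 10.10, the difference was 1.03 (adjusted p of 0.0468). It did not pass without dLGN array 36_2 (2.12, adjusted p of 0.0588) or 40_3 (2.08, adjusted p of 0.0691), or with the actin gap as a covariate (2.20, adjusted p of 0.106). In P4 controls Inhba was 7.20, 6.56 and 6.88 in VB and 5.85, 5.58 and 6.21 in dLGN, without overlap, and the difference of 1.0 did not pass (adjusted p of 0.44). Klf4 and Nrn1 were also higher in VB in all 11 pairs, by 0.16 to 0.98 and by 0.01 to 1.63, again without a count over all genes.

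Other members were lower in VB. Vgf was 11.50, 11.42 and 11.65 in VB and 12.13, 12.56, 12.16 and 12.29 in dLGN of P0 embBE mice, a difference of -0.76 (adjusted p of 0.0109). In P0 controls it was 11.82, 11.30 and 11.38 in VB and 12.30 and 12.76 in dLGN, a difference of -1.03 ± 0.21 or 2.04-fold lower (adjusted p of 0.00977). Neither pair of groups overlapped. At P4 Vgf was 11.93, 11.75 and 11.73 in VB and 12.24, 12.16 and 12.22 in dLGN of embBE mice, and 12.04, 12.65 and 11.74 in VB and 12.44, 12.35 and 12.36 in dLGN of controls. The differences of -0.40 and -0.24 did not pass, and only the control groups overlapped. Jun was -0.84 ± 0.20 in P4 controls, 1.79-fold lower in VB without overlap (adjusted p of 0.0189), and -0.53 in P4 embBE mice (adjusted p of 0.0874). Gadd45g was -0.54 in P4 controls (adjusted p of 0.0266), and it was lower in VB in all 11 pairs, as was Ier3. Rgs2 was 10.83, 10.56 and 10.53 in VB and 11.84, 11.68, 11.35 and 11.81 in dLGN of P0 embBE mice, a difference of -1.03 or 2.05-fold lower without overlap (adjusted p of 0.00604). Its other 3 probe sets gave -0.26, -0.24 and -0.44 there, and with the mean of all its probe sets the difference was -0.50 (adjusted p of 0.00614). With the actin gap as a covariate it was -0.57 and did not pass (adjusted p of 0.11).

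Single arrays moved these counts. At P4 in embBE mice, 4 members passed without dLGN array 36_2 or 40_3 and 5 without VB array 24_4 or 36_2, and Fos, Fosl2 and Npas4 were among them each time. At P4 in controls the count was 1 without dLGN array 36_3 (Fosl2), 2 without VB array 40_1 (Fosl2 and Jun) and 3 without dLGN array 24_2 or 40_1 or VB array 36_3, and Fosl2 was among them each time. At P0 in embBE mice it was 2 without VB array 35_3 or 39_3, 3 without VB array 39_4 and 4 without dLGN array 39_3, and Rgs2 was among them each time. At P0 in controls Vgf was lost without VB or dLGN array 39_5. In this comparison 4 heat shock genes also passed at P0 in embBE mice, with Hspe1 at 0.94, Hspa1a at -0.89, Hspa1b at -0.86 and Hsph1 at 0.47, and Hspa1b passed at P4 in embBE mice with -0.94. Their relation to the members was not tested.

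**Figure D3:**
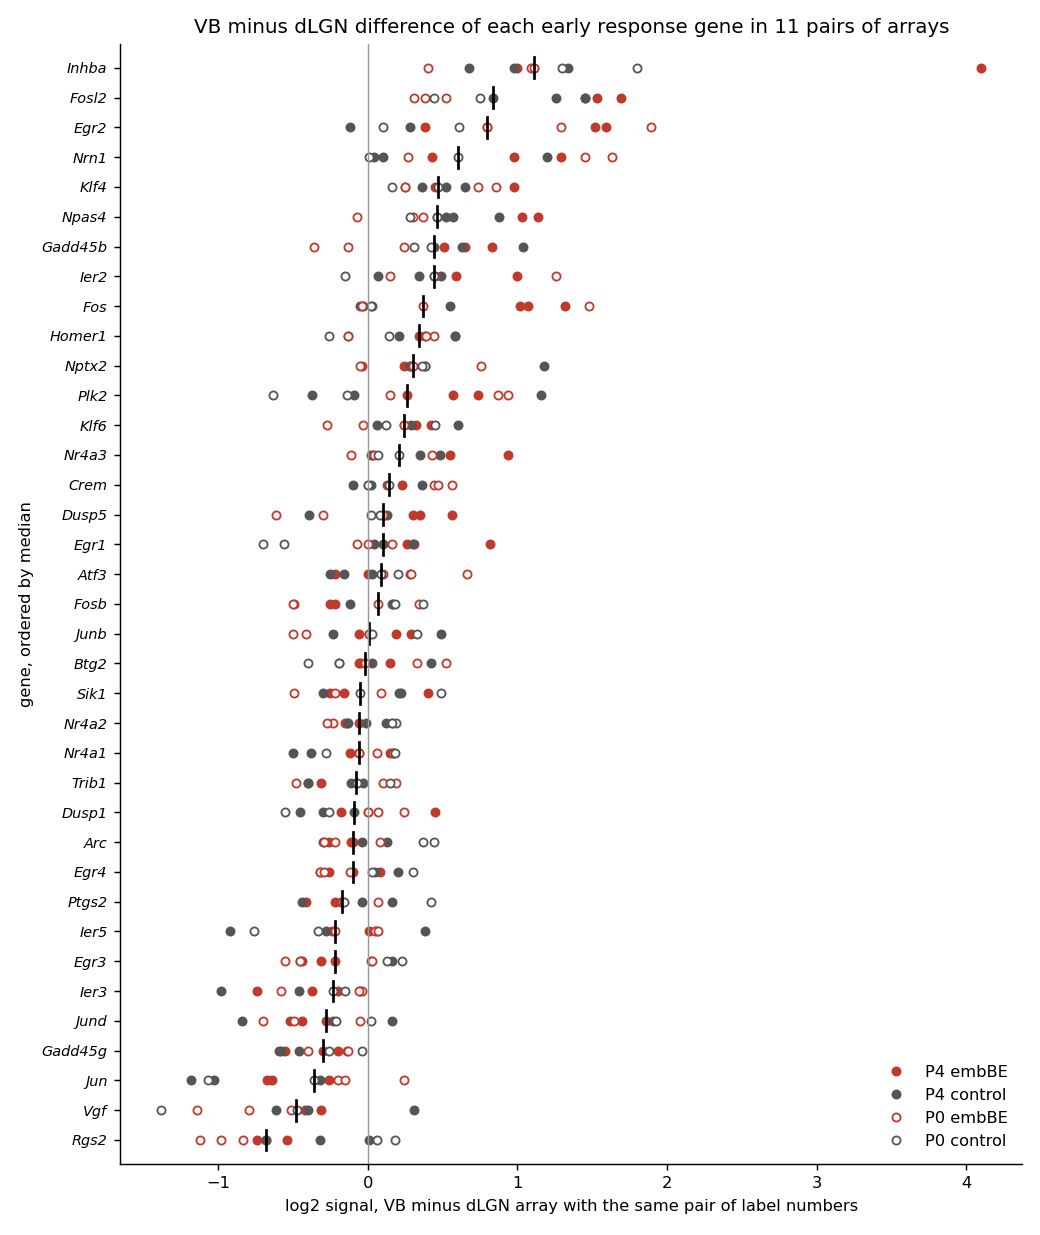
Difference in log2 signal between the VB and dLGN arrays of each of 11 label pairs (horizontal axis) for the 37 members (rows), in red for embBE and grey for control, filled for P4 and open for P0. Fosl2, Klf4, Nrn1 and Inhba lie to the right of 0 in all 11 pairs, and Ier3 and Gadd45g lie to the left of 0 in all 11. The share of all genes that do so was not counted.

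The change with age was also compared between the nuclei, a contrast added after the values were seen. In embBE mice Fosl2 rose by 1.03 ± 0.19 more in VB than in dLGN (adjusted p of 0.0494), the 1 member that passed, where 0.055% of all genes passed. In controls the corresponding difference was 0.58 ± 0.21 (unadjusted p of 0.0107, adjusted p of 0.645), 0 members passed and 0.022% of all genes did. The embBE result did not pass under 14 of 20 alternatives, among them leaving out any of its embBE arrays other than dLGN array 39_2 at P0.

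The result for Fosl2 rested on 1 of its 2 probe sets. The brighter, used above, had a mean of 7.59 and the other a mean of 6.60. The second read 6.37, 6.25 and 6.38 in VB and 6.71, 6.87 and 6.84 in dLGN of P4 embBE mice, so that every VB array was lower (-0.47, unadjusted p of 0.0339 in limma). In P4 controls it read 6.48, 6.94 and 6.37 in VB and 6.42, 6.68 and 7.09 in dLGN, with overlap (-0.13). With age the second probe set changed by -0.16 in VB of embBE mice and by -0.04 in VB of controls. Which transcript each probe set reads is not given in the sources used here. With the mean of both, Fosl2 was 0.54 higher in VB than in dLGN of P4 embBE mice and 0.53 in P4 controls, and rose by 0.38 with age in VB of embBE mice and by 0.34 in VB of controls. These results passed (adjusted p of 0.0123, 0.0212, 0.0325 and 0.0499). In P0 embBE mice the second probe set read 6.53, 6.39 and 6.55 in VB and 6.63, 7.06, 6.11 and 7.04 in dLGN, with overlap. The difference between the nuclei in P0 embBE mice lost the threshold under 5 of 15 alternatives. Its lowest value was 0.15, and its highest adjusted p was 0.39 in limma.

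**Figure D4:**
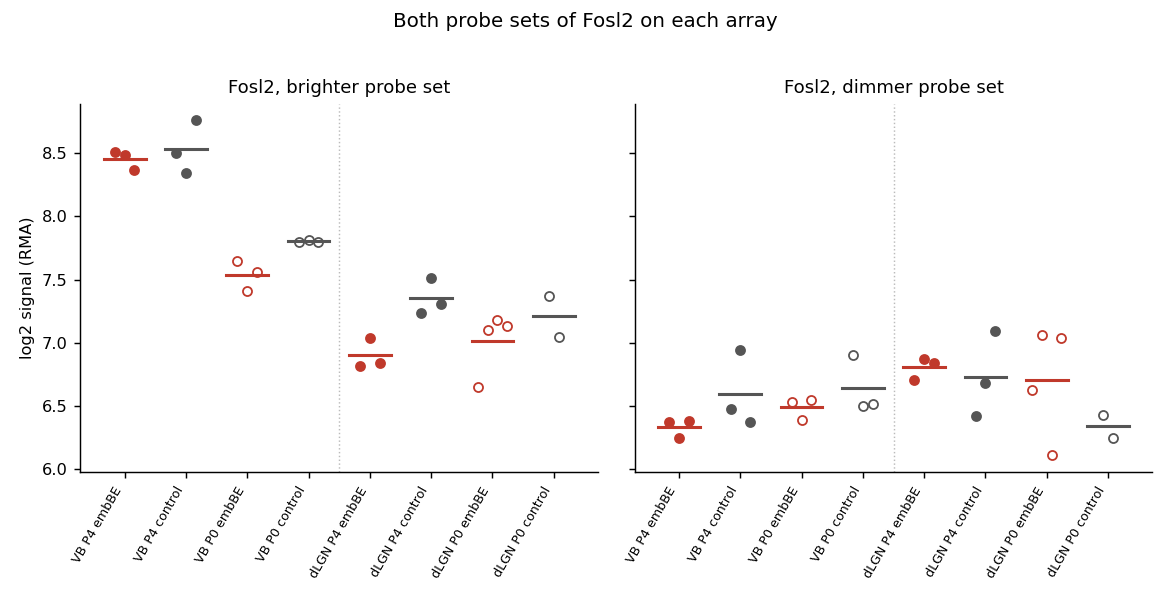
Log2 signal (vertical axis) of both Fosl2 probe sets in each nucleus, with embBE in red left of control in grey; filled points are P4, open points are P0 and bars are group means. The brighter probe set runs from 8.34 to 8.76 in VB at P4 and from 6.82 to 7.51 in dLGN at P4, whereas the other lies between 6.25 and 7.09 in both at that age.

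Other members were read in the same way. Over the 12 comparisons, 26 results passed, and 15 of them concerned a gene with further probe sets. Of the 22 further readings 11 had the same direction, 8 of them with an unadjusted p under 0.05. Between the nuclei in embBE mice 2 of 7 had the same direction at P4 and 5 of 8 at P0, and in controls 3 of 4 did at P4. The second probe set of Jun gave -0.76 between the nuclei in P4 controls and 0.77 between embBE and control in VB at P4, and that of Egr2 gave 1.13 and 0.95 between the nuclei in embBE mice at P4 and P0, all in the direction of the first. The 0.77 of Jun is over the 1.5-fold threshold, which its first probe set did not reach. The second probe set of Inhba gave -0.32 between the nuclei in P4 embBE mice, those of Nr4a3 gave -0.50 and -0.23, and all of these opposed the first. In these mice the third probe set of Gadd45b read 6.53, 6.65 and 6.38 in VB and 6.47, 6.66 and 6.53 in dLGN, with overlap. Its second read 6.92, 7.63 and 7.34 in VB and 6.11, 6.64 and 5.81 in dLGN, in the direction of the first. Egr1 and Fos had 1 probe set each.

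Pairs of members correlated in both directions from array to array. With the group means removed, the median correlation over 666 pairs of members was 0.01, against 0.02 over all pairs of genes, and 335 pairs were above 0. Above 0.7 lay 18 pairs (2.7%, against 8.63% of all pairs of genes), and 24 lay below -0.7 (3.6%, against 8.79%). The pairs ran from -0.92 for Egr4 and Ier5 to 0.87 for Homer1 and Nrn1. These correlations are over 24 arrays that also share the quality of their RNA. With the spread (SD) of each array, the correlation was 0.92 for Nrn1, 0.88 for Homer1, 0.86 for Plk2 and Ier5 and 0.81 for Dusp1, and it was -0.90 for Sik1, -0.88 for Egr3, -0.85 for Egr4 and -0.84 for Jund. For Fos it was 0.54, for Egr1 0.28, for Npas4 0.15, for Nr4a1 0.01 and for Fosl2 -0.03. With the actin gap, the correlation was -0.68 for Fos, -0.45 for Egr1, 0.05 for Npas4, 0.04 for Nr4a1 and -0.22 for Fosl2.

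**Figure D5:**
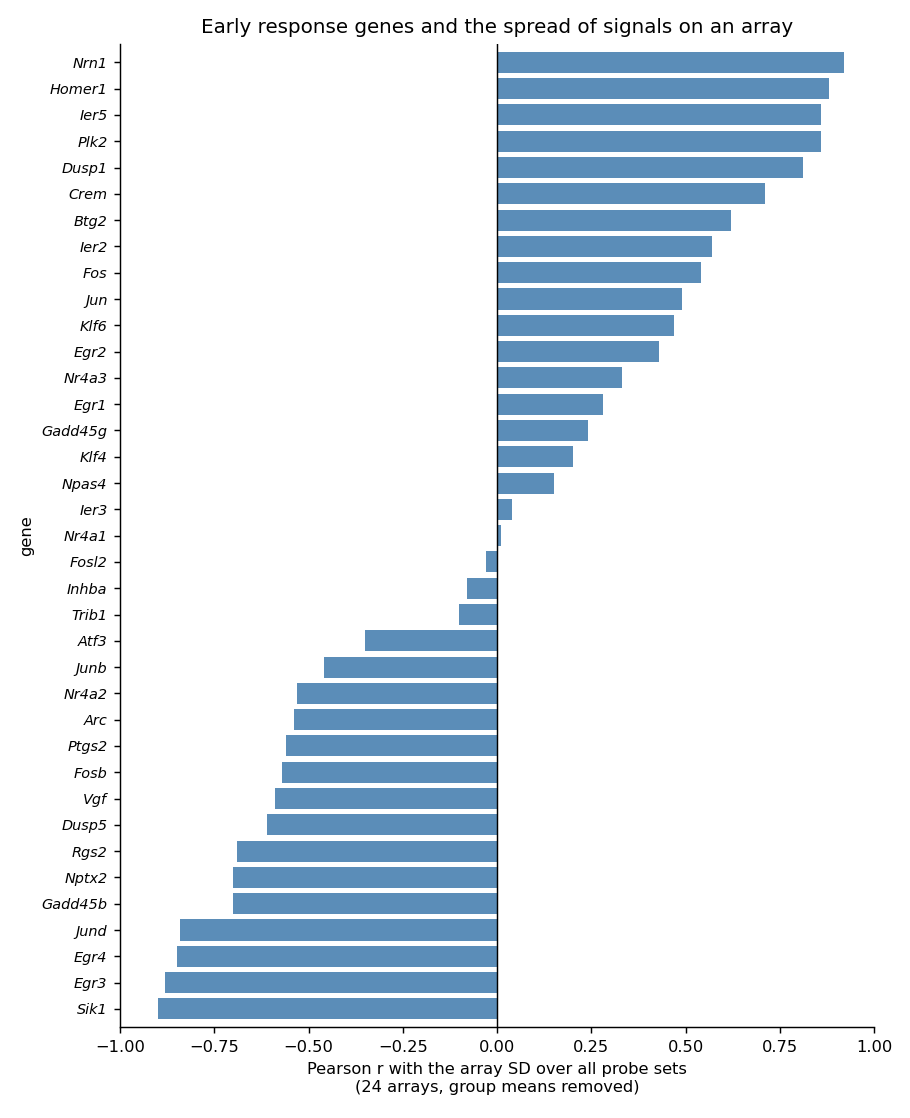
Correlation over 24 arrays (horizontal axis, group means removed) between the log2 signal of each of 37 members (rows) and the SD of all probe sets of the array. Nrn1, Homer1, Plk2 and Ier5 lie at 0.86 or above, Sik1 and Egr3 at -0.88 or below, and Fosl2, Nr4a1 and Npas4 near 0.

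The signalling that induces these genes was read from 27 measured genes that carry calcium signals to the nucleus, and further targets from 31 measured activity-regulated genes outside the module. Between embBE and control mice, 0 of 27 and 0 of 31 were called in VB at P0 and 1 of each in VB at P4, Crebbp (0.66), a coactivator of CREB, and Rasgrp1 (0.68), a Ras activator driven by calcium and diacylglycerol. In dLGN 0 of 27 were called at either age. Dusp4, a nuclear MAP kinase phosphatase, was lower in embBE mice at P4 (-0.95) and P0 (-0.96), and Dusp6, a phosphatase of ERK, at P4 (-0.85). None of these passed the adjustment (adjusted p from 0.751 to 1 in limma).

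With age, Rasd1, a small G protein induced by activity and by glucocorticoids, rose in each group, by 1.37 and 1.35 in VB of embBE and control mice and by 1.51 and 1.66 in dLGN of embBE and control mice. In VB Rasgrp1 rose by 1.76 in embBE mice and 1.06 in controls, and Camk2d, a subunit of calcium-dependent kinase II, rose by 0.97 and 1.05. Of the 31 further targets 2 and 3 rose in VB of embBE and control mice and 1 rose in dLGN of each, and none fell. Of the 27 signalling genes 1 and 2 rose in VB and 0 changed in dLGN. The shares of all genes that passed in these comparisons were 3.42%, 3.78%, 1.02% and 0.561%, so that 1 of 27 in VB of embBE mice is near the share of all genes.

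Between the nuclei, 9 of the 31 further targets passed at P4 in embBE mice (8 higher in VB), 4 at P4 in controls (4 higher), 11 at P0 in embBE mice (8 higher) and 2 at P0 in controls (2 higher). Bdnf, the neurotrophin, was higher in VB in all of these, by 1.44 and 0.91 at P4 and 0.92 and 0.73 at P0 in embBE and control mice. Dusp6 was higher by 1.93 and 0.89 at P4 and 1.84 and 0.99 at P0 in embBE and control mice. Scg2, a secretogranin of dense-core vesicles, was higher by 2.19 and 2.26 at P4 in embBE and control mice. Of the 27 signalling genes 3 passed at P4 in embBE mice (2 higher and 1 lower in VB), 2 at P4 in controls (2 higher), 5 at P0 in embBE mice (2 higher, 3 lower) and 1 at P0 in controls (lower), where 8.44%, 3.21%, 7.46% and 1.56% of all genes passed. Camk4, a nuclear kinase of CREB, was higher by 0.66 in P4 controls and 0.77 in P0 embBE mice. Camk2a, a subunit of calcium-dependent kinase II, differed by -1.03 in P0 embBE mice, and Rps6ka3, the kinase RSK2, by -0.43 in P4 embBE mice and -0.55 in P0 controls. Of the 8 relay neuron markers, Lhx2 and Lhx9 were lower in VB than in dLGN in every group and the other 6 did not pass. The median of the 8 was -0.06 and 0.02 at P4 and -0.05 and -0.16 at P0 in embBE and control mice. Markers of glia passed in both directions. At P4 in embBE mice these were Slc1a2 (0.79), Mbp (1.03) and P2ry12 (1.09), higher in VB, and Gfap (-0.89) and Mag (-0.53), lower in VB. At P4 in controls they were Mbp (1.57) and Mag (-0.39). At P0 in embBE mice Fabp7 (0.95), Aldoc (0.90), Slc1a3 (0.62), Olig1 (1.37) and Pdgfra (0.77) were higher in VB and Aqp4 was lower (-2.82), and at P0 in controls Mbp (1.23) was higher and Aqp4 lower (-2.70). The part of cell composition in the differences between nuclei was not tested.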

How the data were processed

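RNA from microdissected VB and dLGN went through 2 rounds of amplification and was hybridized to Affymetrix Mouse Genome 430 arrays. Per the labels, the authors used RMA, Partek Genomics suite and Matlab (RMA version and settings not given in the sources used here) and deposited log2 signals for 45101 probe sets, of which 64 are array controls. These values were used as deposited, without further normalization or a filter on dim probe sets. Detection calls and probe intensities were not used here, so that the number of arrays sets the precision. Gene symbols came from the platform annotation, updated through Entrez numbers for 34754 probe sets. The 34958 probe sets with 1 symbol gave 18194 genes. Those with several symbols (932) or none (9211) were not used.

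Group means were fitted with limma 3.58.1 (lmFit and eBayes, R 4.3.3) over the 12 arrays of a nucleus for embBE against control and P4 against P0. VB against dLGN, and differences between nuclei, were fitted over all 24 arrays, with duplicateCorrelation for VB and dLGN arrays of the same label numbers (consensus correlation -0.02). Comparisons of embBE with control used the study's threshold, and the others a Benjamini-Hochberg adjusted p under 0.05 over all genes. Errors are SE unless stated. EmbBE and control arrays at P4 share first numbers. Deviations of the arrays that share one correlated at -0.20, -0.05 and 0.22 in VB and at 0.76, 0.02 and 0.19 in dLGN. With so few arrays in a group, these values cannot decide whether the numbers mark pairs. The members and the gene lists were chosen with earlier results of these data known. Per-array values were given by rule for members called between embBE and control, those with the widest passing differences with age or between nuclei in controls, and Fos, Egr1, Arc, Npas4 and Nr4a1. Other members with per-array values were chosen after their values were seen. Motifs were searched on both strands of RefSeq promoter windows (GRCm38.p6). The fit was tested on simulated data. Plots used matplotlib 3.10.9 (Python 3.11.15).

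Alternatives were the 2 compared groups alone, all 24 arrays, the first label number as a replicate block, no random block, the methods' t-test, cyclic loess, median centring, the mean of all probe sets of a gene, probe sets with a mean under 6 left out, eBayes with trend and robust, each array left out in turn, and a fit without the 2 VB control arrays of narrow spread. The actin gap as a covariate, a fit without the 3 dLGN arrays of narrowest spread (embBE 39_3 and 35_3 at P0 and control 40_1 at P4) and the comparison of age changes between nuclei were added after the data were seen.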

Additional observations from a re-analysis of the deposited data

Results flagged for a closer look

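Fosl2 on dLGN array 39_2 of P0 embBE mice was 6.65, and the other 3 arrays of that group were at 7.09 to 7.18. Its gap to the nearest array took 0.83 of the range of the group, above Dixon's critical value for 4 samples. The test was run on the 37 members in this group, the one with 4 arrays, and found this 1 value. Chance gives about 1 flag in 20 tests, so 1 flag among 37 is no more than chance gives.

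The rise of Fosl2 from birth to P4 in embBE mice differed between VB and dLGN by 1.03 (log2, adjusted p of 0.0494 in limma). The comparison was added after the values were seen, and the second Fosl2 probe set did not show the rise (-0.16 in VB of embBE mice).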

How the results depend on the processing

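Of 394 values of members that had been called or had passed, recomputed under the alternatives, 278 kept their direction and their side of the threshold, 115 kept their direction and lost the threshold, and 1 turned round: Nr4a3 between VB and dLGN in P4 embBE mice was -0.07 with the mean of all probe sets. Fosl2 between the nuclei at P4, in both treatments, and Npas4 there in embBE mice passed under each alternative that was run. For embBE against control in VB at P4, where 1 member was called, the count was 0 with the actin gap, 2 with all 24 arrays, 0 with the first label number as a replicate block and 2 with the mean of all probe sets. In VB at P0, where 0 were called, it was 1 with cyclic loess. In dLGN at P4, where 1 was called, it was 0 with the actin gap. In dLGN at P0, where 0 were called, it was 1 with centred arrays, 1 with the replicate block and 1 without the 3 narrow dLGN arrays. Leaving out 1 array gave 0 to 2, 0 to 3, 1 to 3 and 0 to 1 called members in the same order. For P4 against P0 in VB of embBE mice, where 1 passed, the count was 6 with the actin gap, 6 with the 2 compared groups alone, and 2 with cyclic loess or centred arrays. In VB of controls, where 2 passed, it was 6 with the actin gap or without the 2 narrow VB arrays, 0 with the compared groups alone, and 1 with all 24 arrays, centred arrays, trend and robust, the replicate block, or the mean of all probe sets. In dLGN of embBE mice, where 0 passed, it was 2 with the actin gap and 1 with all 24 arrays or cyclic loess. Leaving out 1 array gave 1 to 4 in VB of controls. For VB against dLGN, the count at P0 was 0 with the actin gap and 2 without the 3 narrow dLGN arrays in embBE mice (7 passed), and 2 with the actin gap or with dim probe sets left out in controls (1 passed). At P4 in embBE mice (8 passed) it was 4 with the actin gap. Leaving out 1 array gave 4 to 7 at P4 in embBE mice, 1 to 4 at P4 in controls, 2 to 10 at P0 in embBE mice and 0 to 1 at P0 in controls. Without the random replicate block the counts were 8, 5, 7 and 1. For the age change compared between nuclei in embBE mice, where 1 passed, it was 0 with the mean of all probe sets or without the 3 narrow dLGN arrays, and 0 to 1 with 1 array left out. Centring arrays moved the median of all genes by 0.12 between the nuclei at P4 in embBE mice, and by 0.11 for the embBE effect compared between nuclei at P0. The causes were not tested. Except for the methods' t-test, the share of all genes was not counted under the alternatives. Leaving out a dLGN control array at P0 leaves 1, which is assumed to vary like the other groups.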
